A study of Mus musculus with 6 samples.

Results

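The enzymes that write, copy and remove DNA methylation were followed at the RNA level in mouse Naive CD4+ T cells and in Th17 and Th1 cells derived from them. Of the 24223 genes listed, 7 were taken by their symbols: the methyltransferases Dnmt1, Dnmt3a and Dnmt3b, the dioxygenases Tet1, Tet2 and Tet3, and Uhrf1. Among these, Tet1 stood apart. It was 15.4-fold lower in Th17 than in Naive cells, was 5.26-fold higher in Th1 than in Th17 cells, and was the single gene of the 7 that edgeR called in any comparison. Dnmt3a, Dnmt3b, Tet3 and Dnmt1 were also lower in both Th17 libraries than in both Naive libraries, by 2.08- to 3.20-fold, but none of these 4 passed the threshold. Tet2 and Uhrf1 overlapped between the groups in every comparison.

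DNA methylation in mammals is placed mostly on cytosines followed by guanine (CpG). Dnmt3a and Dnmt3b set new methyl groups, whereas Dnmt1 copies the pattern to the new strand after replication, guided by Uhrf1, which recognises half-methylated CpG. The TET enzymes oxidise 5-methylcytosine to 5-hydroxymethylcytosine and further, which opens a way to its removal. In CD4+ T cells these enzymes are known for their part in keeping cytokine and lineage genes silent or letting them open.

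RNA-Seq was carried out on 6 libraries, 2 independent biological replicates from each of 3 groups. Naive cells were CD4+CD62L+ cells isolated from pooled lymph nodes and spleens of C57BL/6 mice aged 1 to 2 months and were not activated. Th17 and Th1 cells were grown from such cells with antibodies to CD3 and CD28 and collected on day 5. The Th17 cultures received TGF-β, IL-6, IL-1β and IL-23 with antibodies to IL-4 and IFN-γ, and the Th1 cultures received IL-12 and IL-2 with an antibody to IL-4. No genetic change is given for any group. Since activation, time in culture and cytokines all separate Th from Naive cells, their parts in a Th against Naive difference cannot be told apart.

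The libraries held 17742158 to 69080017 counts, and replicate 1 was 3.38 to 3.77 times as deep as replicate 2 in every group. The summed level of 5 CD4 T cell markers was 2250 to 3350 CPM (read counts scaled to a common library size) in all 6 libraries, and the Th17 and Th1 marker lists were highest in the libraries of those names. The 5 naive T cell markers did not set the Naive libraries apart, at 2551 and 3923 CPM against 2340 to 3958 CPM in the Th libraries. Markers of other cells were present as well. The 10 erythroid markers summed to 924.5 and 149.4 CPM in Naive and to 2.03 to 4.30 CPM elsewhere, with the 4 haemoglobin genes at 0 in every library. Of the same list, Car1 reached 462.8 CPM in Naive replicate 1, and why the haemoglobin genes held no count was not tested. The 8 haematopoietic progenitor markers summed to 742.2 and 384.1 CPM in Naive, 324.0 and 304.5 CPM in Th17, and 71.6 and 50.4 CPM in Th1. The 8 neutrophil markers reached 2956 and 2824 CPM in Th17 against 21.5 to 59.8 CPM elsewhere. In Th17, the 6 measured of 7 macrophage and dendritic cell markers summed to 238.9 and 822.0 CPM, against 10.5 to 38.2 CPM elsewhere. The 6 mast cell and basophil markers summed to 211.3 and 422.6 CPM there and to 37.8 to 138.1 CPM elsewhere, and the 6 B cell markers stayed between 2.49 and 17.4 CPM throughout.

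The gene regions of the TET family are shown here as letters, because this family held the only member called by edgeR and its products act on the methylated cytosine of CpG. Each line gives the RefSeq window of 250 bases before and 50 bases after the annotated transcript start in build GRCm38.p6, 5′ to 3′ on the gene's strand, with every CpG in capitals.

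Tet1 (chr10:62887275-62887574, - strand): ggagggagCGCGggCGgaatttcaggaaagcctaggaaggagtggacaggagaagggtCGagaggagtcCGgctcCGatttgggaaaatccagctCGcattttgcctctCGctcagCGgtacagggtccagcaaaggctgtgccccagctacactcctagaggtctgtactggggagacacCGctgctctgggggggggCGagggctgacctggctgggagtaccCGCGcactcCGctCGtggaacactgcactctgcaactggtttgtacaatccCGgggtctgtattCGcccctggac
Tet2 (chr3:133544341-133544640, - strand): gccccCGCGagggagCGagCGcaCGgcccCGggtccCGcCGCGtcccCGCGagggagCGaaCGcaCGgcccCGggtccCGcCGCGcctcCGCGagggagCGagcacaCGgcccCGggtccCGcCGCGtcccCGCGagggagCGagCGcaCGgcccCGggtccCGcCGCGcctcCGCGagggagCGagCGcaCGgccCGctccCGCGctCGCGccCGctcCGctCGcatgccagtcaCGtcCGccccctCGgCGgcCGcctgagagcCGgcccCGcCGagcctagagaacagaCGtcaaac
Tet3 (chr6:83441629-83441928, - strand): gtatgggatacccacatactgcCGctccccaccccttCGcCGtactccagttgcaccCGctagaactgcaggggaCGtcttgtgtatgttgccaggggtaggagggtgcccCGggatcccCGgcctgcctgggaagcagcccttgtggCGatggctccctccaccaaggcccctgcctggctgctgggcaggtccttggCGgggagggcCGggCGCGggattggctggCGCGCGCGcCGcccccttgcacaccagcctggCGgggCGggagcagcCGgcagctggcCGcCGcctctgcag

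The Tet1 window held 17 CpGs, the Tet3 window 22 and the Tet2 window 57, against a median of 7 over 32851 promoter windows of the same length, with quartiles at 3 and 20. In all, RefSeq gave 12 windows for the 7 genes, and 11 of them were above that median. The exception was the outermost of 3 windows of Dnmt1, with 2 CpGs. These libraries carry no measure of methylation at these bases.

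Tet1 lies on chromosome 10 (GRCm38, 62804570 to 62908996, minus strand). Gene coordinates here and below are from GENCODE vM21, whereas the windows above are from RefSeq. The windows of Tet1, Tet2 and Tet3 lie inside these GENCODE spans and not at their 5′ ends. Tet1 carries a CXXC domain that binds unmethylated CpG. Its level was 13.4 and 26.6 CPM in Naive, 1.29 and 1.30 CPM in Th17, and 7.09 and 6.51 CPM in Th1, scaled by TMM (trimmed mean of M-values). These levels rest on 23 to 910 counts a library. The 3 groups did not overlap, Naive being highest and Th17 lowest, and the Naive replicates differed the most. Down-regulation in Th17 against Naive was -3.94 on the log2 scale (SE 0.46), with edgeR adjusted p = 6.6e-04. A gene was called at adjusted p < 0.01 with an absolute log2 fold change above 1 throughout, and 1.43% of the 13607 genes tested were called lower in this comparison. It stayed called without any one library, at -4.36 to -3.38.

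In Th1, Tet1 was 2.93-fold lower than in Naive (log2 fold change -1.55, SE 0.41), which was not called by edgeR (adjusted p = 0.029) and was called by DESeq2 (adjusted p = 0.0038). Up-regulation in Th1 against Th17 was 2.39 on the log2 scale (SE 0.44, edgeR adjusted p = 0.0066). Here 2.70% of genes tested were called higher. This call was lost without Th17 replicate 1 (edgeR adjusted p = 0.053), Th17 replicate 2 (0.048), Th1 replicate 1 (0.018) or Th1 replicate 2 (0.013), while the change stayed between 2.33 and 2.46. Both comparisons with Naive use the same Naive libraries. The summed neutrophil, macrophage and mast cell lists were highest where Tet1 was lowest. The summed erythroid and progenitor lists were highest in Naive, where Tet1 was highest. Not every gene followed its sum. In Th17 against Naive, 1 of the 6 mast cell and basophil markers had a negative log2 fold change and 3 of the 8 progenitor markers a positive one. Lyz2 alone gave 222.6 and 762.2 CPM of the macrophage sums in Th17. Within Naive, erythroid markers were higher in replicate 1 (924.5 against 149.4 CPM) and Tet1 in replicate 2 (26.6 against 13.4 CPM). In bulk RNA, fewer cells that express a gene and less RNA per cell cannot be told apart, and the part of other cells in these results was not tested.

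**Figure D1:**
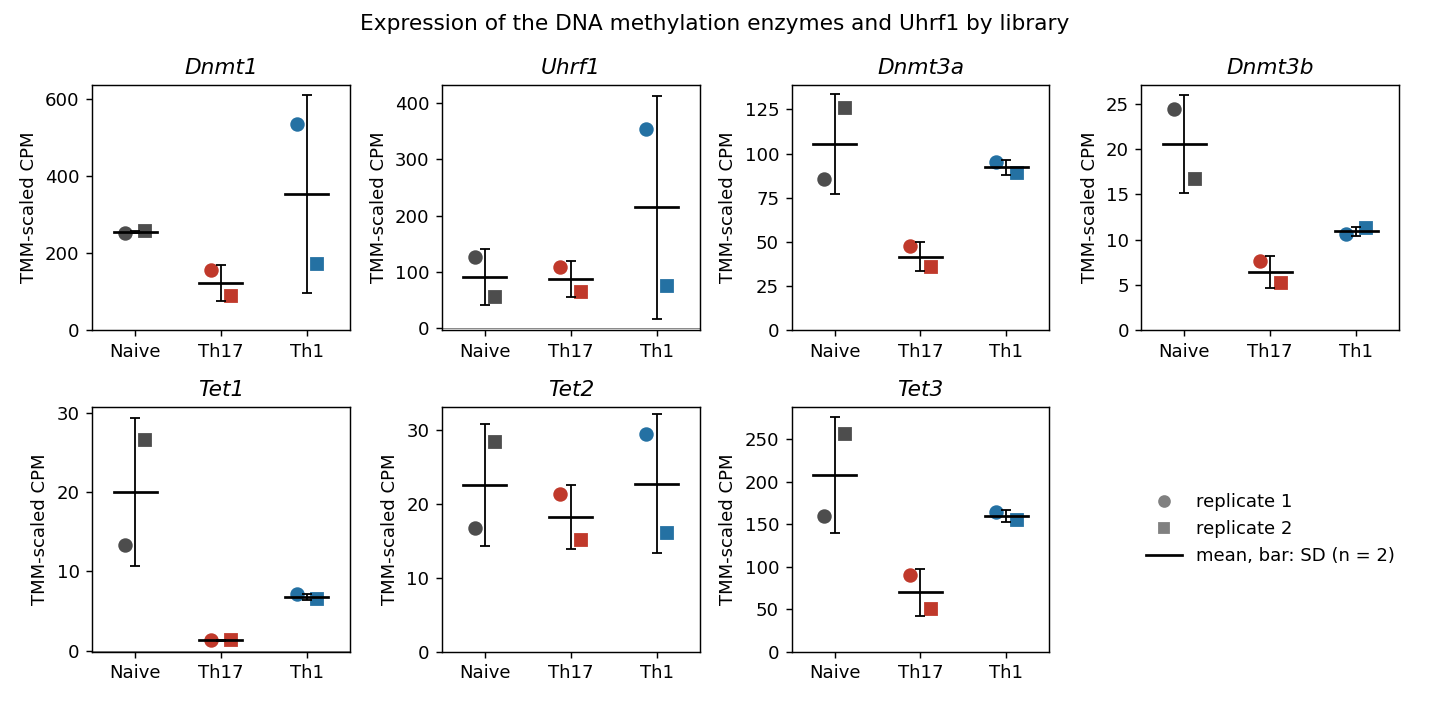
TMM-scaled CPM (y axis) of each of the 7 genes in Naive, Th17 and Th1 (x axis). Circles are replicate 1, squares replicate 2, lines the mean and bars the SD (n = 2). Tet1 falls into 3 separate levels, with Th17 at 1.29 and 1.30 CPM. Dnmt1 and Uhrf1 in Th1 are spread widely by replicate 1.

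Tet3, the family member that was most abundant per exon length in all 6 libraries, lies on chromosome 6 (83362373 to 83459084, minus strand). Its level was 160 and 257 CPM in Naive, 89.6 and 49.96 CPM in Th17, and 165 and 155 CPM in Th1. The Th17 libraries were below all others, whereas Th1 overlapped with Naive. The difference between Th17 and Naive was -1.58 (log2, SE 0.35), with edgeR adjusted p = 0.016, short of the threshold, and DESeq2 adjusted p = 6.2e-04. Between Th1 and Th17 it was 1.19 (SE 0.35, edgeR adjusted p = 0.044), and between Th1 and Naive -0.38 (SE 0.34, edgeR adjusted p = 0.51).

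Tet2 lies on chromosome 3 (133463679 to 133545139, minus strand) and lacks the CXXC domain of its relatives. It was measured at 16.7 and 28.3 CPM in Naive, 21.3 and 15.2 CPM in Th17, and 29.4 and 16.1 CPM in Th1. The groups overlapped throughout, and the replicates of each group differed by more than the group means did. Its log2 fold changes were -0.30 (SE 0.40) in Th17 against Naive, 0.02 (SE 0.40) in Th1 against Naive and 0.32 (SE 0.40) in Th1 against Th17, with edgeR adjusted p from 0.59 to 0.98. Its exons share 43 bases with Gm42567 on the other strand, a gene not analysed here.

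Levels were also taken per kilobase of the union of annotated exons. The expressed transcripts were not resolved, so comparisons between genes on this scale depend on that annotation. On this scale, Tet3 made up 82.8% ± 1.36 (SD, n = 2) of the summed TET level in Naive, 77.6% ± 3.31 in Th17 and 84.4% ± 3.81 in Th1. Tet2 was 8.80% ± 0.214, 20.7% ± 2.69 and 11.7% ± 3.91 of it, and Tet1 8.36% ± 1.14, 1.68% ± 0.622 and 3.88% ± 0.106. Tet1 and Tet2 were thus present at near-equal levels per kilobase in Naive, and Tet2 exceeded Tet1 in all 4 Th libraries. The ratio of Tet3 to Tet1 per kilobase was lowest in Naive (11.1 and 8.93), highest in Th17 (64.6 and 35.5), and between the others in Th1 (21.5 and 22.0). It did not overlap between the groups. With 2 libraries against 2 an exact permutation test cannot go below p = 0.333, so that single values such as these ratios were not tested.

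**Figure D2:**
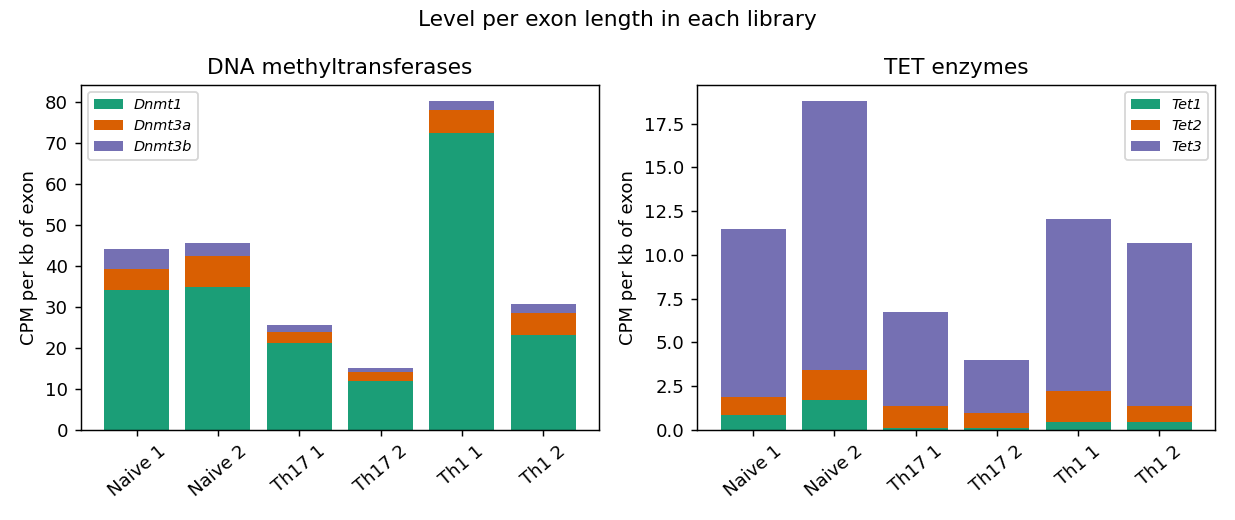
TMM-scaled CPM per kilobase of exon (y axis) stacked over the 3 methyltransferases (left) and the 3 TET enzymes (right) in each library (x axis; number is the replicate). Dnmt1 and Tet3 make up the largest part of each bar, and the Tet1 part is smallest in the Th17 libraries.

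Of the de novo enzymes, Dnmt3a lies on chromosome 12 (3806007 to 3914443, plus strand). It was measured at 85.4 and 125.5 CPM in Naive, 47.5 and 35.6 CPM in Th17, and 95.3 and 89.2 CPM in Th1. As for Tet3, both Th17 libraries were below the other 4. Th1 lay within the Naive range. Th17 was 2.53-fold below Naive (log2 fold change -1.34, SE 0.29), not called by edgeR (adjusted p = 0.014) and called by DESeq2 (adjusted p = 5.3e-04). Th1 was above Th17 by 1.15 on the log2 scale (SE 0.29, edgeR adjusted p = 0.026, DESeq2 adjusted p = 0.0035), and Th1 differed from Naive by -0.19 (SE 0.28, edgeR adjusted p = 0.71). The antisense gene Dnmt3aos shares 133 exon bases with Dnmt3a and had at most 3 counts in any library.

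Dnmt3b lies on chromosome 2 (153649450 to 153687730, plus strand). Its level was 24.5 and 16.7 CPM in Naive, 7.65 and 5.15 CPM in Th17, and 10.6 and 11.3 CPM in Th1. The 3 groups were separate in the order Naive, Th1 and Th17. The difference between Th17 and Naive was -1.68 (log2, SE 0.37, edgeR adjusted p = 0.015, DESeq2 adjusted p = 1.4e-04). The step from Naive to Th1 was -0.92 (SE 0.36, edgeR adjusted p = 0.11) and that from Th17 to Th1 was 0.76 (SE 0.36, edgeR adjusted p = 0.17), so that neighbours in this order were not distinguished by the test. Reads shared with a close copy of the gene, such as the rodent duplicate Dnmt3c, which was not analysed here, may have been split or lost in counting. The ratio of Dnmt3a to Dnmt3b per kilobase was 1.07 and 2.30 for Naive, 1.90 and 2.12 for Th17 and 2.77 and 2.43 for Th1, and was higher in both Th1 libraries than in the other 4.

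Of the maintenance pair, Dnmt1 lies on chromosome 9 (20907209 to 20959888, minus strand). It reached 252 and 256 CPM in Naive, 155 and 88.4 CPM in Th17, and 533 and 170 CPM in Th1. The Naive replicates were nearly equal, both Th17 libraries were below all others, and the Th1 replicates fell on either side of Naive. Its log2 fold changes were -1.06 in Th17 against Naive (SE 0.48, edgeR adjusted p = 0.15), 0.47 in Th1 against Naive (SE 0.48, edgeR adjusted p = 0.57) and 1.53 in Th1 against Th17 (SE 0.49, edgeR adjusted p = 0.058). Without Th1 replicate 1 the Th1 values became -0.54 against Naive and 0.48 against Th17. Dnmt1 made up 76.9% ± 0.888 (SD, n = 2) of the summed methyltransferase level per kilobase in Naive, 81.0% ± 2.61 in Th17 and 82.8% ± 10.6 in Th1. The share of Dnmt3a was 14.1% ± 3.48, 12.7% ± 2.07 and 12.3% ± 7.34, and that of Dnmt3b 9.03% ± 2.59, 6.28% ± 0.546 and 4.90% ± 3.27. By library, Naive and Th17 did not overlap in the share of Dnmt1 (77.5% and 76.2% against 82.9% and 79.2%) or of Dnmt3b (10.9% and 7.20% against 5.89% and 6.67%), and they overlapped in that of Dnmt3a. The 3 shares in Th1 overlapped with those of both other groups.

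Uhrf1 lies on chromosome 17 (56303321 to 56323486, plus strand). It was measured at 126 and 54.9 CPM in Naive, 109 and 64.6 CPM in Th17, and 355 and 74.5 CPM in Th1. Replicate 1 was above replicate 2 in each group, by 2.29, 1.69 and 4.76 times, and no group was separate from another. Its log2 fold changes were -0.06 (SE 0.62) in Th17 against Naive, 1.25 (SE 0.63) in Th1 against Naive and 1.30 (SE 0.63) in Th1 against Th17, with edgeR adjusted p of 0.96, 0.22 and 0.18. Without Th1 replicate 1 both Th1 values turned to -0.23. Per kilobase, Dnmt1 exceeded Uhrf1 in both Naive libraries (ratio 1.16 and 2.70), was below it in both Th17 libraries (0.821 and 0.790), and stood at 0.868 and 1.32 in Th1.

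Uhrf1 and Dnmt1 are read beside cell cycle genes, since both are known to be made in S phase. A list of 20 replication and mitosis genes summed to 2990 and 1405 CPM in Naive, 2733 and 2475 CPM in Th17, and 7429 and 2250 CPM in Th1. Of the 20 genes, 20 were higher in replicate 1 in Naive, 16 in Th17 and 20 in Th1. Th1 replicate 1 was the highest library for the list, for Uhrf1 and for Dnmt1. None of the 20 genes was called in any comparison by edgeR. Over all genes, edgeR called 4.01% higher and 1.43% lower in Th17 against Naive. These shares were 4.64% and 2.81% in Th1 against Naive, and 2.70% and 2.83% in Th1 against Th17. With DESeq2, 0 were called in Th17 against Naive, where 7.69% of all genes were called higher and 4.92% lower. DESeq2 called 5 higher in Th1 against Naive (8.16% of all genes) and 1 in Th1 against Th17 (6.80% of all genes). At edgeR adjusted p < 0.05 with the same fold threshold, the counts called higher were 0, 4 and 1. Over all genes, 1223, 1188 and 1036 of 13607 were called higher at this setting. The part of proliferation in the Dnmt1 and Uhrf1 values was not tested.

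**Figure D3:**
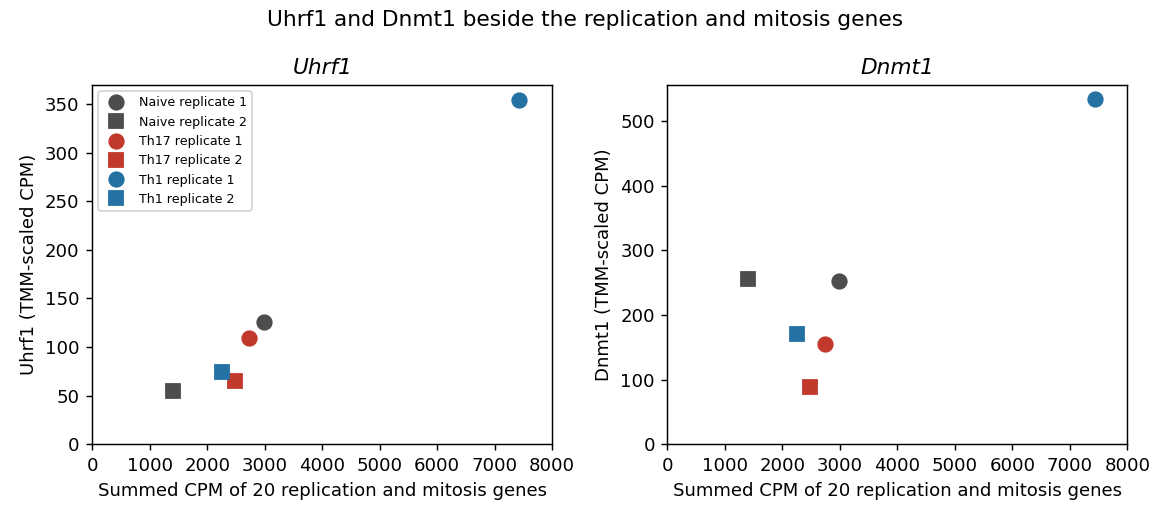
Level of Uhrf1 (left) and Dnmt1 (right) in TMM-scaled CPM (y axis) against the summed CPM of 20 replication and mitosis genes (x axis), 1 point a library. Th1 replicate 1, at 7429 CPM on the x axis, is the highest library for both genes, and the Naive replicates differ in Uhrf1 (126 and 54.9 CPM) but not visibly in Dnmt1 (252 and 256 CPM).

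Promoter windows of the 7 genes were searched on both strands for the E2F motifs TTTCCCGC and TTTGGCGC, the cell cycle homology motifs TTTGAA and TTCGAA, and CCAAT. TTTGGCGC was found in 1 of the 12 windows, the third of Dnmt1, 33 bases after the start. Of all 32851 windows, 0.514% held it and 1.56% held either E2F motif. TTTGAA was found in 1 window each of Dnmt1 and Dnmt3b, against 17.9% of all windows, and TTCGAA in none. CCAAT was found in both windows of Uhrf1, in 2 of 3 of Dnmt1 and in the window of Tet3, against 37.4% of all windows. No motif searched was found in the windows of Dnmt3a, Tet1 and Tet2. A match in letters is not a bound site.

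Counted together, the 7 genes all had negative log2 fold changes in Th17 against Naive, with a median of -1.34, where the median over all 13607 genes was -0.02. With the replicate number as a block, the Uhrf1 value turned to 0.05. The groups did not overlap for 5 of the 7, all lower in Th17, where 33.1% of all genes were separate in that direction and 32.4% in the other. Of the 7, 1 was called lower by edgeR (1.43% of all genes), and 4 by DESeq2 (4.92% of all genes). None was called higher, by edgeR (4.01% of all genes) or by DESeq2 (7.69%). In Th1 against Naive the median was -0.19 against -0.02 for all genes. None was called by edgeR, where 4.64% of all genes were called higher and 2.81% lower, and DESeq2 called 1 lower (5.93% of all genes) and 0 higher (8.16%). Only Dnmt3b and Tet1 were separate, both lower in Th1, as were 28.4% of all genes, with 27.6% separate and higher. In Th1 against Th17 all 7 were positive, with a median of 1.19 against -0.03 for all genes. Here 5 were separate and higher in Th1 (31.5% of all genes), 1 was called by edgeR (2.70% of all genes) and 2 by DESeq2 (6.80% of all genes). None was separate and lower (35.1% of all genes) or called lower by edgeR (2.83%) or DESeq2 (6.41%). The comparisons share libraries pairwise, so that their medians are not independent of each other. Scaling by library size alone moved the median of all genes to -0.05, -0.26 and -0.24 in the order of the comparisons above.

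**Figure D4:**
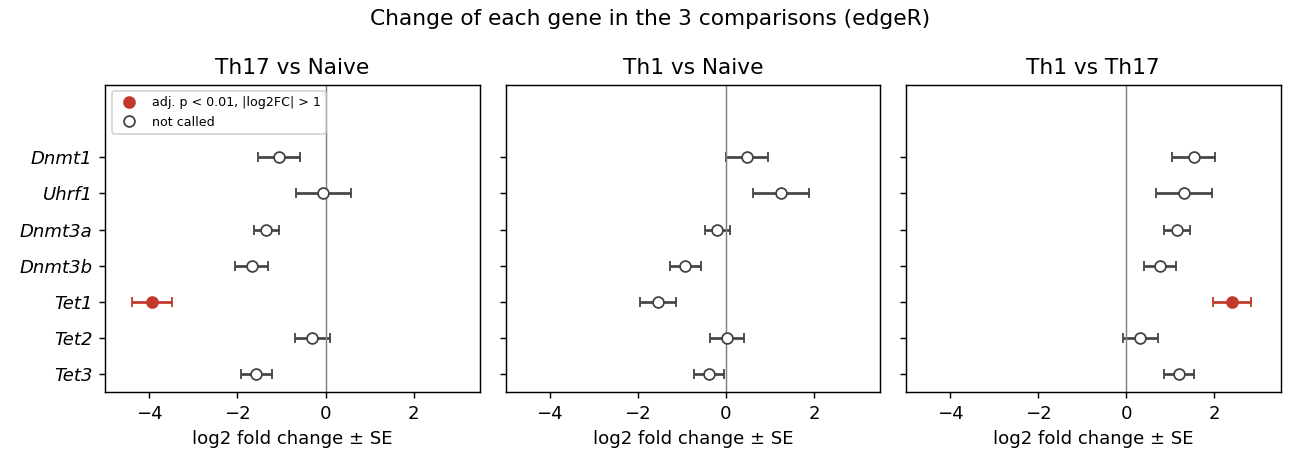
Log2 fold change with its SE (x axis) of each of the 7 genes (y axis) in Th17 against Naive, Th1 against Naive and Th1 against Th17, from edgeR. Filled red points passed the threshold (adjusted p < 0.01 and absolute log2 fold change above 1). Tet1 is the only filled point, at -3.94 in the first and 2.39 in the third panel.

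Genes that work with these enzymes were taken from 6 lists holding 47 genes, of which 44 were tested. In Th17 against Naive, edgeR called 2 of the 44 higher and 0 lower, with a median log2 fold change of -0.47, where 4.01% of all genes were called higher and 1.43% lower. In Th1 against Naive, 2 were called higher and 2 lower (median -0.05), where 4.64% of all genes were called higher and 2.81% lower. In Th1 against Th17, 3 were called higher and 1 lower (median 0.15), where 2.70% of all genes were called higher and 2.83% lower. DESeq2 called more of all genes, 7.69% higher and 4.92% lower in Th17 against Naive. Its shares were 8.16% and 5.93% in Th1 against Naive, and 6.80% and 6.41% in Th1 against Th17. The DESeq2 calls below are to be read beside these shares. The partners of maintenance methylation, such as Uhrf2 and Hells, had 0 of 7 called in each comparison by edgeR and by DESeq2, with medians of -0.62, 0.08 and 0.30. The partners of de novo methylation, such as Trim28 and Setdb1, also had 0 of 7 called by edgeR, with medians of -0.60, -0.29 and 0.74. In Th17 against Naive, DESeq2 called Trim28, a corepressor, lower (log2 fold change -1.06, adjusted p = 0.0017) and Dnmt3l higher. Dnmt3l, the catalytically inactive cofactor of the Dnmt3 enzymes, had no count in either Naive library, 53 and 10 counts in the Th17 libraries, and 8 and 0 counts in the Th1 libraries.

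Among 9 readers of methylated CpG, only Zbtb38, a zinc-finger protein that binds it, was called by edgeR. It was measured at 21.2 and 29.1 CPM in Naive, 9.58 and 8.94 CPM in Th17, and 27.7 and 31.0 CPM in Th1. It was 3.17-fold higher in Th1 than in Th17 (log2 fold change 1.66, SE 0.31, edgeR adjusted p = 0.0073), and the call was lost without any one of the 4 libraries compared (edgeR adjusted p from 0.015 to 0.074 without each). In Th17 against Naive it had a log2 fold change of -1.44 (SE 0.31, edgeR adjusted p = 0.014). DESeq2 called 2 of the 9 readers lower in that comparison, where it called 4.92% of all genes lower. The 2 were Zbtb38 (DESeq2 adjusted p = 1.5e-04) and Mbd3, a NuRD subunit (log2 fold change -1.07, DESeq2 adjusted p = 0.0015). Of 6 tested TET partners and co-substrate genes, Cxxc5, a CXXC protein that binds unmethylated CpG, was the one called by edgeR, lower in Th1 than in Naive, with levels of 10.6 and 6.78 CPM in Naive, 2.83 and 2.83 CPM in Th17, and 1.21 and 1.52 CPM in Th1. The log2 fold change was -2.70 (SE 0.46, edgeR adjusted p = 0.0039), and the call was lost without Naive replicate 1 (edgeR adjusted p = 0.022), Th1 replicate 1 (0.029) or Th1 replicate 2 (0.013). DESeq2 also called Cxxc5 lower in Th17 than in Naive (adjusted p = 0.0034), and Idh2, a mitochondrial enzyme that makes the TET co-substrate 2-oxoglutarate, lower in Th1 than in Naive (log2 fold change -1.14, adjusted p = 0.0058) and than in Th17 (-1.16, adjusted p = 0.0052).

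In the repair list, the genes called by edgeR were all of the Gadd45 family, small stress-induced proteins that have been linked to DNA demethylation and also take part in the control of p38 signalling. Gadd45g was measured at 7.68 and 7.08 CPM in Naive, 106 and 84.7 CPM in Th17, and 448 and 466 CPM in Th1. The 3 groups were far apart, with log2 fold changes of 3.69 in Th17 against Naive (SE 0.29, edgeR adjusted p = 7.5e-05) and 5.95 in Th1 against Naive (SE 0.32, edgeR adjusted p = 1.6e-05). Between Th1 and Th17 it was 2.26 (SE 0.27, edgeR adjusted p = 8.0e-04), and without Th17 replicate 2 this last call was lost (edgeR adjusted p = 0.011).

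Gadd45b was instead highest in Th17, with 45.6 and 47.5 CPM. It stood at 11.9 and 11.7 CPM in Naive, and the Th1 libraries gave 14.5 and 18.1 CPM. It was called higher in Th17 than in Naive (log2 fold change 1.98, SE 0.29, edgeR adjusted p = 0.0021) and lower in Th1 than in Th17 (-1.52, SE 0.29, edgeR adjusted p = 0.0078). Each of these calls was lost without any one of the 4 libraries compared, with edgeR adjusted p from 0.011 to 0.016 for the first and from 0.021 to 0.068 for the second. Gadd45a was highest in Naive, at 15.2 and 10.6 CPM, with 3.93 and 4.58 CPM in Th17 and 2.00 and 2.28 CPM in Th1. It was called lower in Th1 than in Naive (-2.60, SE 0.41, edgeR adjusted p = 0.0027), and this call was lost without Naive replicate 1 (edgeR adjusted p = 0.013) or Th1 replicate 1 (0.017). DESeq2 also called Gadd45a lower in Th17 than in Naive. Tdg, the glycosylase that excises oxidised methylcytosine, had 0 to 3 counts in every library. Processed copies of Tdg exist in the mouse genome, and reads shared with them may have been left out, so that this low count is uncertain.

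In the methyl donor cycle, Ahcy, which hydrolyses the S-adenosylhomocysteine left by each methyl transfer, was the one gene of 7 called by edgeR. It was measured at 198 and 91.3 CPM in Naive, 147 and 116 CPM in Th17, and 829 and 1001 CPM in Th1. The Th1 libraries were above all others, by 6.32-fold against Naive (log2 fold change 2.66, SE 0.40, edgeR adjusted p = 0.0019) and 6.95-fold against Th17 (2.80, SE 0.40, edgeR adjusted p = 0.0020). The second call was lost without Th17 replicate 1 (edgeR adjusted p = 0.017) or Th17 replicate 2 (0.019). DESeq2 also called Mtr, the methionine synthase, lower than in Naive in Th17 (log2 fold change -1.08, adjusted p = 0.0059) and in Th1 (-1.14, adjusted p = 0.0027).

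**Figure D5:**
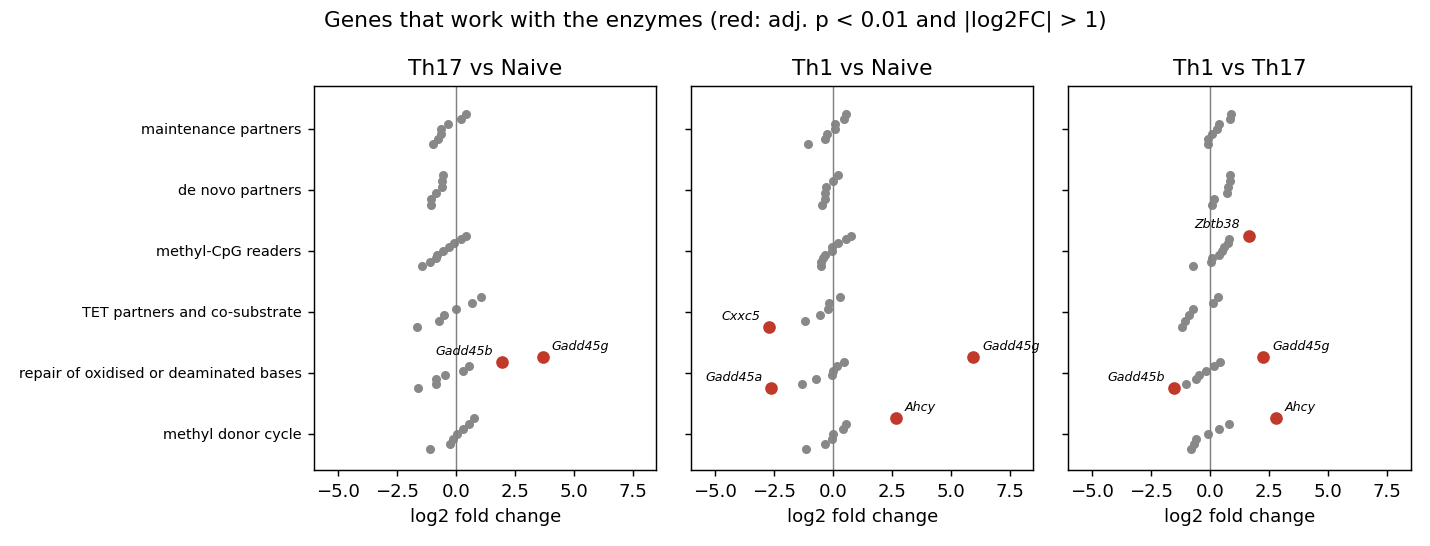
Log2 fold change (x axis) of the tested genes of the 6 lists (y axis) in the 3 comparisons, 1 point a gene. Red points passed the edgeR threshold and are named. Dnmt3l is left out because Naive held no count. Gadd45g is the farthest point in Th1 against Naive, at 5.95.

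Across the 6 libraries, in log2 CPM, Dnmt3a and Tet3 followed each other most closely of the 7 (Pearson r = 0.99), followed by Dnmt3a with Tet1 (0.94) and Tet1 with Tet3 (0.93). Dnmt1 and Uhrf1 had r = 0.74, and Uhrf1 and Tet1 r = 0.00. Many other genes had r as high. Among 9865 genes compared, Tet3 ranked 17 by r to Dnmt3a, and Dnmt3a ranked 46 by r to Tet3. Tet1 ranked 360 by r to Dnmt3a and 586 by r to Tet3. By r to Tet1, Dnmt3a ranked 98 and Tet3 164. Uhrf1 ranked 981 by r to Dnmt1, and Dnmt1 ranked 540 by r to Uhrf1. These values describe 3 pairs of libraries that share their group, and carry no test. Among 9865 genes with a mean of at least 5 CPM, the 3 genes most like Tet1 were Fgf13 (r = 0.994), Ets2 (0.993) and Ube3c (0.990). For Uhrf1 they were Fancd2 (0.995), E2f8 (0.991) and Casc5 (0.990), and for Dnmt1 Pkmyt1 (0.995), Larp4b (0.991) and Rbm15 (0.989). Those most like Dnmt3a were Aqr, Cnot2 and Trappc11 (each 0.993), and those most like Dnmt3b were Slc45a4 (0.994), Drosha (0.994) and Mbd3 (0.993). Tet2 was nearest to Tmem86b (0.992), Tnpo2 (0.989) and Xrn1 (0.987), and Tet3 to 2610015P09Rik, Ppp1r3f (each 0.999) and Tyk2 (0.998). These genes were picked by their r over the same 6 libraries, so the likenesses in pattern given below follow from that choice. Ets2, an Ets family transcription factor, was measured at 35.1 and 54.1 CPM in Naive, 10.6 and 8.203 CPM in Th17, and 25.1 and 24.0 CPM in Th1, and so shared with Tet1 both the order of the groups and the higher value in Naive replicate 2. Fancd2, a DNA crosslink repair protein, was measured at 14.4 and 5.001 CPM in Naive, 10.5 and 6.05 CPM in Th17, and 40.3 and 8.09 CPM in Th1, and so shared with Uhrf1 the high value in Th1 replicate 1.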

How the data were processed

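RNA was measured in 6 libraries of mouse CD4+ T cells, 2 each of Naive, Th17 and Th1. Reads were aligned to mm10 with HISAT2 2.2.1 and counted per gene with HTSeq 0.13.5, per the study's methods and the submitters' processing notes. The deposited files hold raw read counts per gene as the authors counted them, with no normalization. The methods name duplicate removal and default counting, whereas the deposited code names a reverse-strand option, so the strand setting is uncertain here. There are no molecular identifiers, so that counts are not independent molecules.

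Gene annotation was taken from GENCODE vM21 and promoter windows from RefSeq, both on GRCm38, which is mm10. Of 24223 genes, 6377 had no count in any library and 23017 matched GENCODE by symbol. Counts were filtered with filterByExpr, which left 13607 genes including all 7 studied, scaled by TMM, and tested in 1 fit over all 6 libraries with edgeR 4.0.16 (quasi-likelihood F-test, Benjamini-Hochberg adjusted p over all genes tested, R 4.3.3). A gene was called at adjusted p < 0.01 and an absolute log2 fold change above 1. DESeq2 1.42.0 was an alternative, as were other scalings and filters, a replicate block, thinning to the smallest library, a fit on the 4 libraries compared, an adjusted p under 0.05, and leaving out each library. All adjusted p-values are from edgeR unless DESeq2 is named. CPM are TMM-scaled, and levels per kilobase divide them by the union of exons of the gene.

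Replicate numbers were checked as pairs: deviations from the group mean correlated at -0.231 between Naive and Th17, 0.168 between Naive and Th1 and 0.0766 between Th17 and Th1, so that the numbers were not used to pair libraries. Replicate 1 was nevertheless 3.38 to 3.77 times as deep in every group. Of the 20 replication and mitosis genes, 20, 16 and 20 were higher in replicate 1 in Naive, Th17 and Th1. What libraries of 1 number share was not tested. The fit was tested on simulated data for Th17 against Naive, with 13414 genes of which 200 were changed. At a log2 fold change of 1.5, edgeR recovered 22 of 100 genes and DESeq2 40 of 100. At 3, they recovered 81 and 89 of 100, with 0 and 7 unchanged genes called.

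The members and the gene lists were chosen with earlier results of these data known. Genes named in the text are the 7 members, the called genes of each pathway list (at most 4 a list, with more than 3 counts in every library), the 3 genes with the highest Pearson r to each member, and marker genes that are highest or at 0. Dnmt3l and Tdg were named outside this rule, after their counts were seen, as were Mtr, Idh2, Mbd3 and Trim28, which DESeq2 alone called, and Uhrf2, Hells and Setdb1 as examples of their lists.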

Additional observations from a re-analysis of the deposited data

Results flagged for a closer look

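The change from Naive differed between Th1 and Th17 cells for 5 of the genes described, tested as the contrast of Th1 with Th17 by edgeR. Tet1 was lower than Naive in both, and its change was 2.39 higher on the log2 scale in Th1 than in Th17 (adjusted p = 0.0066), with all Th1 libraries above all Th17 libraries. Ahcy differed by 2.80 (adjusted p = 0.0020), Gadd45g by 2.26 (adjusted p = 8.0e-04) and Zbtb38 by 1.66 (adjusted p = 0.0073), each higher in both Th1 libraries than in both Th17 libraries. Gadd45b differed by -1.52 (adjusted p = 0.0078), and was lower in both Th1 libraries. In the contrast of Th1 with Th17, 2.70% of all genes were called higher and 2.83% lower. Apart from Tet1, the genes flagged here were described because edgeR had called them in a comparison, so their count is not a share. Groups of 2 libraries are too small for a search for outlying libraries.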

How the results depend on the processing

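Where a count of calls below moved with the method, the cause was not tested. Counts of members and list genes are to be read beside the counts over all genes further below. Those also rose with DESeq2, with no filter and at an adjusted p under 0.05. The settings with no filter or with at least 10 counts tested other numbers of genes, so that their counts are not shares of the same total. In Th17 against Naive, Tet1 was called under each of 16 alternatives (log2 fold change -4.36 to -3.38, edgeR or DESeq2 adjusted p up to 0.00996). Tet1 in Th1 against Th17 lost its call under scaling by library size alone (2.18, edgeR adjusted p = 0.016) and without any one Th17 or Th1 library. Of the 624 values of single genes under alternatives, 538 kept direction and side of the threshold, 40 gained a call, 27 lost one, 19 changed otherwise and none of the called ones reversed. Most of the 624 belong to genes and comparisons without a call in the main fit, where none could be lost.

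Members called lower in Th17 against Naive were 1, against 4 with DESeq2, 5 with no filter, 2 after thinning and 4 at an adjusted p under 0.05 (1 to 1 without each library). Members called in Th1 against Naive were 0, against 1 higher with no filter and 1 lower with each of DESeq2, no filter and an adjusted p under 0.05. Members called higher in Th1 against Th17 were 1, against 2 with DESeq2, 0 by library size alone, 5 with no filter and 3 at an adjusted p under 0.05 (0 to 1 without each library).

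Of the pathway list genes, 0 were called lower in Th17 against Naive, against 6 with DESeq2, 6 with no filter and 7 at an adjusted p under 0.05, and those called higher were 2 (1 to 2 without each library). Those called lower in Th1 against Naive were 2, against 4 with each of DESeq2, no filter and an adjusted p under 0.05 (0 to 2 without each library). In Th1 against Th17, those called higher were 3 (0 to 3 without each library) and those called lower 1, against 2 with each of the same 3 alternatives (0 to 1 without each library).

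Over all genes, 545 were called higher in Th17 against Naive, against 1047 with DESeq2, 1203 with no filter, 250 with at least 10 counts in every library and 1223 at an adjusted p under 0.05 (291 to 633 without each library). Those called lower were 194, against 670, 951, 93 and 840 under the same alternatives in that order, 123 by library size alone and 292 with the 4 libraries compared (28 to 252). In Th1 against Naive, 631 were called higher, against 1110 with DESeq2, 399 by library size alone, 1287 with no filter and 1188 at an adjusted p under 0.05 (330 to 595), and 383 lower, against 807 with DESeq2, 972 with no filter, 217 with at least 10 counts and 976 at an adjusted p under 0.05 (115 to 477). In Th1 against Th17, 367 were called higher, against 925 with DESeq2, 202 by library size alone, 1188 with no filter and 1036 at an adjusted p under 0.05 (107 to 476), and 385 lower, against 872 with DESeq2, 1044 with no filter, 159 with at least 10 counts and 1076 at an adjusted p under 0.05 (159 to 540). A lone library left in a group was assumed to vary like the other groups.

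The replicate block, for numbers that were not used as pairs in the main fit, gave 3 members called lower in Th17 against Naive with edgeR (Dnmt3b, Tet3 and Tet1) and 4 with DESeq2. With DESeq2 and the block, 1 member was called lower in Th1 against Naive, 3 higher in Th1 against Th17, and 4 pathway list genes lower in Th17 against Naive. Over all genes the block with edgeR gave 329 called lower in Th17 against Naive. With DESeq2 the block gave 940 higher and 575 lower in Th17 against Naive, 1075 and 724 in Th1 against Naive, and 850 and 780 in Th1 against Th17.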
